A study of Mus musculus with 12 samples.

Results

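Collagens are the proteins that build the fibrils and sheets of the extracellular matrix. Every member holds stretches in which each chain winds with its partners as a trimer, so a trimer that is made of different chains needs the products of several genes. Hair follicle stem cells (HFSCs) of the bulge rest on a basement membrane, whose core is a network of collagen IV, and anchoring fibrils of collagen VII tie such a membrane to the dermis below. The collagen genes were taken as every gene whose symbol was Col, a number, a and a number, apart from Col17a1, a component of hemidesmosomes. This gave 43 genes of 21942 in the 2 expression tables together, with 39 of 17885 in the table of Eed iKO and control and 43 of 21915 in the hair cycle table.

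The libraries were RNA-seq of HFSCs of mouse back skin (C57BL/6J), sorted as CD34+ and EpCAM+ cells with high α6-integrin and without Sca1, with 3 libraries in each of 4 groups and 12 in all. The Eed iKO group carried K15-CrePGR and Eed fl/fl, and RU-486 at 10 mg/ml was put on the skin daily for 7 days from postnatal day (P) 50 before collection at P70. Its label reads Eed -/-. Eed is a core subunit of Polycomb repressive complex PRC2, and K15-CrePGR removes it only where the K15 promoter is active, mainly in the bulge. The control group is labelled as wildtype and was also collected at P70, and by the study's methods control mice received ethanol, the solvent of RU-486. Loss of Eed and treatment with RU-486 therefore cannot be told apart. The hair cycle groups were wild type mice at P28-30 for anagen, the phase of hair growth, and at P50-52 for telogen, the phase of rest, so phase and age cannot be told apart. Values are normalized counts, in which a library's reads were scaled by its size factor, and the 2 tables were scaled separately, so levels are compared within a table only. The study calls the libraries biological replicates, but the labels do not tie each to an animal, and a p-value here measures the spread between libraries, which may be technical in part.

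The sorted cells carried the markers of HFSCs, with all 12 on the list measured above the filter in both tables. Their summed level was uneven, at 237652 in telogen replicate 1 and 532860 to 664824 in the other hair cycle libraries. Markers of differentiated epidermis summed to 10568, 7769 and 39750 in control and 13224.5, 4474 and 57525 in the libraries labelled Eed iKO. Replicate 3 was highest in each group. In the hair cycle table they summed to 7621 to 15220 in telogen and 4144 to 12640 in anagen. Total reads ranged from 33269583 to 57063586 in the 5 libraries of the Eed iKO table whose recovery of whole reads was accepted, and are not given for the others. The targeted gene Eed read 1084, 1249 and 950.2 in control and 933.3, 1361 and 1001 in the libraries labelled Eed iKO, which overlap, so this gene did not separate the labels. A value for the whole gene does not check the loss of a part of its transcript, and the libraries are therefore called by their label. Markers of fibroblasts, the main makers of dermal collagen, were mixed in the hair cycle table, from Twist2, at 0 in all 6 libraries, to Postn, at 27256 or more in each. In bulk RNA, fewer cells of a type and less RNA per cell cannot be told apart.

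The upstream sequence of 4 collagen genes is shown because these genes carry the contrasts described later. Col5a1 was high in anagen, Col8a2 was low in anagen, and Col4a5 and Col4a6 lie head to head on the X chromosome, 1309 bases apart at their starts, yet only Col4a5 passed the test. Each is 216 bases that end a short way before the first base of the RefSeq transcript (GRCm38.p6, the same assembly as mm10) and hold no annotated exon, read 5′ to 3′ on the strand of the gene. Capitals mark a GC box (GGGCGG, or CCGCCC on the other strand), a CCAAT box (CCAAT or ATTGG) or a TATA box (TATAAA or TTTATA).
Col5a1 (chr2:27886175-27886390, plus strand): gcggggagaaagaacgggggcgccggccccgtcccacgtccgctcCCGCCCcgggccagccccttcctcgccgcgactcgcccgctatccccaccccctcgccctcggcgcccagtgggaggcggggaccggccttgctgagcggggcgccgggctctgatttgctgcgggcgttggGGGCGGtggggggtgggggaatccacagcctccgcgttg
Col8a2 (chr4:126286544-126286759, plus strand): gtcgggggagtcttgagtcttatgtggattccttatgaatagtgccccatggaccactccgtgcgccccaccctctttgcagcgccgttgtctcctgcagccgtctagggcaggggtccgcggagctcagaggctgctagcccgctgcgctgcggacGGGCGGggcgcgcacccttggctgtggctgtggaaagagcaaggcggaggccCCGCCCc
Col4a5 (chrX:141475169-141475384, plus strand): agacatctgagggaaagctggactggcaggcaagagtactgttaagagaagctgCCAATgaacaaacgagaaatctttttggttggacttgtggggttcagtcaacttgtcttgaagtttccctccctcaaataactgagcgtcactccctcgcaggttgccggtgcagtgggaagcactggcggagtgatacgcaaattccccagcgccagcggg
Col4a6 (chrX:141474111-141474326, minus strand): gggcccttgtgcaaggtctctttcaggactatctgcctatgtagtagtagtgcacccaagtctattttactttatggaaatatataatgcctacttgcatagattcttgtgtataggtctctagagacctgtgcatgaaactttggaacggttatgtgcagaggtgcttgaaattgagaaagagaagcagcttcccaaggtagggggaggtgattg
The Col5a1 and Col8a2 windows each held a GC box on either strand, the Col4a5 window held a CCAAT box, and the Col4a6 window held none of these letters. Of 32851 RefSeq windows cut in the same way, 27.9% held a GC box, 30.5% a CCAAT box and 9.80% a TATA box on either strand. A match describes the letters only. The windows leave out the bases next to the start, so a box there, a TATA box included, was not looked for. The missing boxes and the shares over all windows hold for the searched bases only. The Col5a1 and Col8a2 windows had GC contents of 77.3% and 67.1%, against 52.3% for Col4a5 and 43.5% for Col4a6.

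The collagen genes differed widely in level. Per kilobase of the longest transcript, the scale on which genes can be compared, the highest mean in both hair cycle phases was that of Col12a1, which codes for a collagen that decorates fibrils. Its level was 610.0 ± 58.6 normalized counts per kb (SD, n = 3) in telogen and 489 ± 37.7 in anagen. Col7a1, the anchoring fibril collagen, stood at 378 ± 215 in telogen and 360.0 ± 29.4 in anagen. Col6a1, a chain of the beaded filaments of collagen VI, stood at 353 ± 77.1 and 402 ± 23.6 per kb. The 1 SD intervals of Col7a1 and Col6a1 overlapped in either phase. Col8a2, a chain of the short network collagen VIII, followed in telogen at 207 ± 91.3 per kb, and Col5a2, Col18a1 and Col6a2 came next, with Col18a1 coding for a basement membrane collagen that carries heparan sulfate. In anagen, Col18a1 at 208 ± 16.0 and Col4a5 at 141 ± 14.8 per kb took the places after Col6a1 and Col7a1. With the total exon length in place of the longest transcript, Col6a1 led in anagen, at 376 per kb against 370 for Col12a1. Of the 6 highest collagen genes in each group, 5 or 6 were shared between the 2 lengths.

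In the Eed iKO table the same genes led. Col6a1 stood at 2408 ± 349 per kb in control and 2211 ± 159 in the libraries labelled Eed iKO. Col18a1 stood at 2047 ± 637 and 2688 ± 362 per kb, Col12a1 at 1759 ± 164 and 2356 ± 530.3, and Col7a1 at 1432 ± 108 and 1862 ± 434. In control Col8a2, at 1440.1 ± 172 per kb, lay between Col12a1 and Col7a1, and Col6a2 came after them at 1207 ± 187. The 1 SD intervals of Col6a1, Col18a1 and Col12a1 overlapped in both groups in the order of their means. In control those of Col12a1 and Col8a2 overlapped, and those of Col12a1 and Col7a1 did not.

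**Figure D1:**
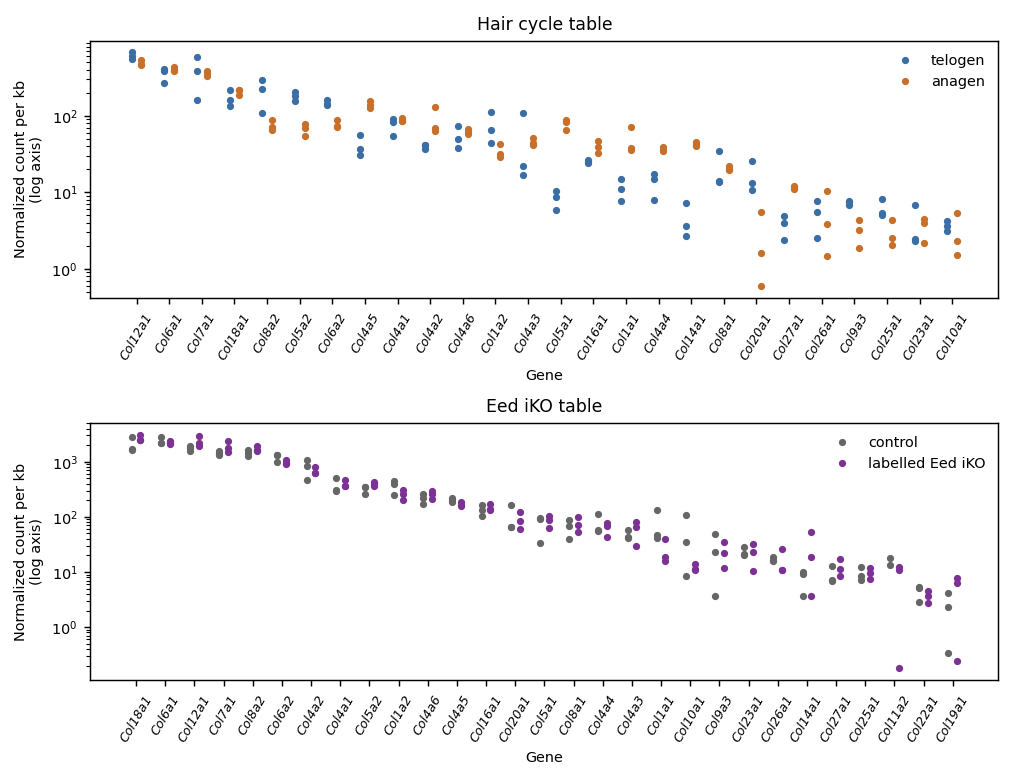
Normalized counts per kb of the longest transcript (log axis) in each library for the collagen genes that passed the filter, with the hair cycle table above and the Eed iKO table below. Each point is 1 library, a library at 0 is not drawn, and the 2 panels cannot be compared in level. Col12a1 led in the hair cycle table, and Col18a1, Col6a1 and Col12a1 led in the other.

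At the other end, 17 of 43 collagen genes in the hair cycle table did not pass the filter on low values, and 4 of them (Col9a1, Col6a5, Col13a1 and Col28a1) were listed at 0 in all 6 libraries. The 17 were spread over the classes, with 6 fibrillar chains, 4 chains of collagen VI and 4 fibril-associated chains. Among the fibrillar chains left out, Col3a1, the partner of collagen I in skin fibrils, read 0, 0.42 and 0 in telogen and 48.5, 6.75 and 20.2 in anagen. Col24a1, a minor fibrillar chain, read 0, 8.80 and 2.23 in telogen and 4.16, 26.8 and 46.6 in anagen. The Col3a1 values did not overlap between the phases and those of Col24a1 did. With no filter on low values, an alternative, Col3a1 was higher in anagen (log2 fold change 4.16, SE 0.81, limma adjusted p = 0.011) and Col24a1 had an adjusted p of 0.173. With telogen at or near 0, the size of the Col3a1 value depends on the 1 added before the log. Col6a3, the chain that completes the usual collagen VI trimer, reached at most 9.16 normalized counts in the hair cycle table and 10.6 in the Eed iKO table, while the lowest Col6a2 library read 352 in the hair cycle table and 4397 in the other. In the Eed iKO table, 10 of 39 did not pass. These include Col9a2, a cartilage chain, which was listed at 0 in each control library and read 11.8, 25.2 and 0.99 in the libraries labelled Eed iKO. These genes were picked after their values were seen.

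The first comparison asked how collagen genes differ between HFSCs in anagen and in telogen. On log2(normalized count + 1), with a limma fit over all genes and Benjamini-Hochberg adjustment, 10 of the 26 tested collagen genes had an adjusted p under 0.05, 6 of them higher and 4 lower in anagen. That is 38.5% of the tested collagen genes, beside 11.6% of the 13457 genes tested, or 7.22% higher and 4.35% lower. The rule of the study's methods, a log2 fold change over 2 in size with an unadjusted p under 0.05, took 4 collagen genes (15.4%) against 5.1% of all genes, with 3 higher against 3.33% and 1 lower against 1.77%. With an unadjusted p under 0.05 there were 12, and 27.3% of all genes. The median log2 fold change of the 26 was 0.18, against 0.01 for all genes, with large changes in both directions. The groups of libraries did not overlap for 16 of the 26 (61.5%), and for 33.3% of all genes. A gene can pass the filter through its high phase alone, so these shares describe the genes that passed and not all 43.

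By size the leading differences were in Col14a1 and Col20a1, both collagens that bind fibrils, and in the fibrillar chains Col5a1 and Col1a1. Col5a1 (chr2:27886425-28039514, plus strand) codes for the alpha-1 chain of collagen V, which helps to start and thin collagen I fibrils. Its 3 telogen libraries read 73.0, 87.8 and 49.4 normalized counts, and its 3 anagen libraries read 550.1, 743 and 702. Every anagen library lay far above every telogen library, and the mean rose from 70.0 ± 19.4 to 665 ± 102 (SD, n = 3), or 9.49-fold. In limma the log2 fold change was 3.26 (SE 0.33, adjusted p = 1.5e-04). Its partner in the collagen V trimer, Col5a2 (chr1:45374321-45503282, minus strand), went the other way. Col5a2 read 1187, 1036 and 1352 in telogen and 359, 459 and 521 in anagen, with no overlap, and fell by 1.42 on the log2 scale (SE 0.23, limma adjusted p = 0.00322).

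Collagen I showed a like split. Col1a1 (chr11:94936224-94953042, plus strand), the chain present in more copies in the collagen I trimer, read 65.5, 45.5 and 89.9 in telogen and 214, 227 and 419 in anagen. The anagen libraries were all higher, with anagen replicate 3 the highest, and Col1a1 rose by 2.06 on the log2 scale (SE 0.41, limma adjusted p = 0.00928). Without anagen replicate 3 the adjusted p was 0.055, so this library decides the call. Col1a2, which codes for the other chain, read 233, 599.7 and 346 in telogen and 154, 229 and 172 in anagen. Its groups did not overlap either, but the log2 fold change of -0.997 (SE 0.37) had a limma adjusted p of 0.108 and did not pass. Telogen replicate 1 had the lowest Col1a2 of its group, and without it the adjusted p was 0.032. Col27a1 (chr4:63214004-63334991, plus strand), a fibrillar collagen best known from cartilage, read 37.0, 30.4 and 17.9 in telogen and 92.8, 86.6 and 84.9 in anagen. It passed narrowly, with a log2 fold change of 1.66 (SE 0.48, limma adjusted p = 0.047), and when fitted 6 times with 1 library fewer it passed 1 time, without telogen replicate 1. Its adjusted p reached 0.170 without anagen replicate 1. With 3 higher and 1 lower, 4 of the 5 tested fibrillar chains passed.

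Of the 5 tested FACITs, the collagens that bind to the surface of fibrils, 1 was higher and 1 lower in anagen. Col14a1 (chr15:55307750-55520803, plus strand), a FACIT of mature fibrils, read 46.4, 17.3 and 23.4 in telogen and 290.0, 279.9 and 261 in anagen. The anagen libraries lay within a narrow band well above telogen, and Col14a1 rose by 3.33 on the log2 scale (SE 0.45, limma adjusted p = 0.00103), or 9.54-fold in the means. Col20a1 (chr2:180986535-181018363, plus strand), a FACIT, read 131, 66.1 and 53.2 in telogen and 28.0, 8.19 and 2.97 in anagen. It fell by 2.94 on the log2 scale (SE 0.76, limma adjusted p = 0.030), on low counts in anagen that spread over a wide range, and when fitted 6 times with 1 library fewer it passed 1 time, without anagen replicate 1. Its adjusted p reached 0.092 without anagen replicate 2. The abundant FACIT Col12a1 read 6425, 7753 and 6887 in telogen and 5334, 6128 and 5426 in anagen. These groups did not overlap, but the log2 fold change was -0.32 (SE 0.17, 95% interval -0.69 to 0.06) with a limma adjusted p of 0.255, which did not pass.

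**Figure D2:**
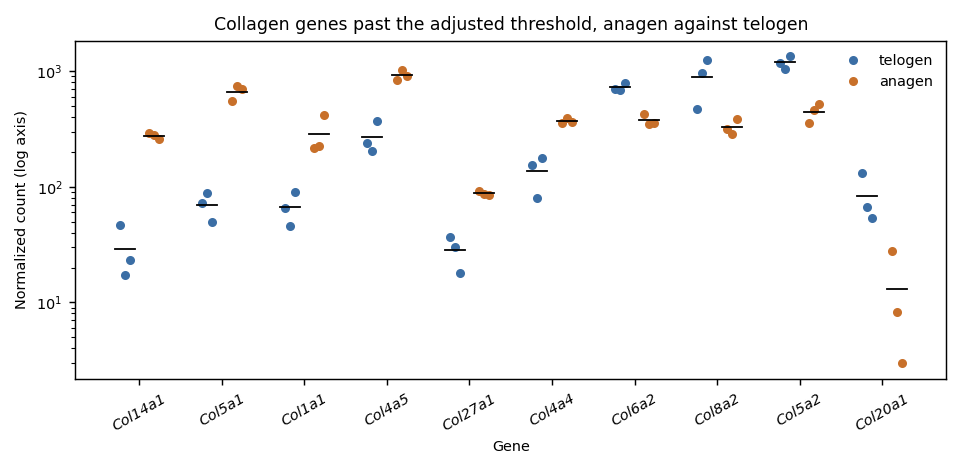
Normalized counts (log axis) of the 10 collagen genes past the adjusted threshold, in 3 telogen and 3 anagen libraries, ordered by fold change. Points are libraries and bars are means of 3. No gene had overlapping groups, and Col20a1 in anagen spread most, from 2.97 to 28.0.

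Collagen IV, the basement membrane collagen, has 6 chains that are coded in 3 head-to-head pairs of genes. All 6 chains passed the filter and all 6 had a positive log2 fold change, from 0.23 to 1.81, of which 2 passed the test. Those of Col4a1 and Col4a3 turned negative when 1 library was left out. Col4a5 (chrX:141475385-141689234, plus strand) read 239, 204 and 369 in telogen and 835, 1026 and 901 in anagen, with every anagen library above every telogen library. It rose by 1.81 on the log2 scale (SE 0.27, limma adjusted p = 0.00218), or 3.41-fold in the means. Its neighbour Col4a6 gave 0.26 (SE 0.29, 95% interval -0.38 to 0.89) and did not pass. Col4a4 (chr1:82448423-82586849, minus strand), which forms a trimer with the chains of Col4a3 and Col4a5, read 153, 79.2 and 177 in telogen and 356, 393 and 366 in anagen. The groups did not overlap, and Col4a4 rose by 1.52 on the log2 scale (SE 0.35, limma adjusted p = 0.019). The adjusted p was between 0.068 and 0.086 when any anagen library was left out, so the Col4a4 call rests on all 3.

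Col4a3 begins 72 bases from Col4a4, on the other strand. It read 146, 933 and 190.2 in telogen and 376, 445 and 351 in anagen. Telogen replicate 2 stood far above the rest, and the 95% interval of the log2 fold change was -0.84 to 1.62. Without that library the log2 fold change of Col4a3 was 1.22 and passed (limma adjusted p = 0.031). Col4a1 and Col4a2, the pair found in nearly every basement membrane, have starts 21 bases apart. Col4a2 read 240.3, 272 and 265 in telogen and 854, 447 and 411 in anagen, and its log2 fold change of 1.06 (SE 0.31) had a limma adjusted p of 0.051, just outside the threshold, where Col27a1 was just inside. Col4a1 gave 0.23 (SE 0.26) with overlapping groups. The kit is not known to keep strand, so reads from the stretch where the Col4a1 and Col4a2 models overlap cannot be told apart.

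Among the remaining network and filament collagens, both genes that passed were lower in anagen. Col8a2 (chr4:126286793-126314330, plus strand) read 472, 957 and 1256 in telogen and 314, 284 and 384 in anagen. The groups did not overlap, although telogen replicate 1 lay well below the other telogen libraries, and Col8a2 fell by 1.35 on the log2 scale (SE 0.34, limma adjusted p = 0.029). When fitted 6 times with 1 library fewer it passed 1 time, without telogen replicate 1, and the adjusted p was up to 0.103. Col6a2 (chr10:76595762-76623630, minus strand) read 697, 687 and 793 in telogen and 429, 352 and 356 in anagen. The libraries of each phase lay close together, and Col6a2 fell by 0.94 on the log2 scale (SE 0.23, limma adjusted p = 0.024). It passed 2 times in 6 in the same way, without telogen replicate 1 or 2, and its adjusted p reached 0.104 without anagen replicate 2. Col6a1 read 1085, 1579.6 and 1674 in telogen and 1575, 1613 and 1758 in anagen, which overlap, with a log2 fold change of 0.21 (SE 0.21).

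Col7a1 read 1483, 3556 and 5458 in telogen and 3060.0, 3605 and 3325 in anagen. The telogen libraries spanned a wide range that held all 3 anagen values, and the 95% interval of the log2 fold change was -0.70 to 0.93. Col18a1 read 1211, 746 and 904 in telogen and 1060.5, 1206 and 1223 in anagen, which overlap, with an interval of -0.19 to 0.81. The membrane-spanning chains were low. Col23a1 read 39.0, 13.2 and 13.9 in telogen and 12.4, 25.3 and 22.8 in anagen, with overlap. Col25a1 read 55.3, 33.4 and 35.5 in telogen and 17.2, 29.5 and 13.6 in anagen. The values of Col25a1 did not overlap, but its log2 fold change of -1.04 (SE 0.57) had a limma adjusted p of 0.262. Col26a1, a little studied member, read 15.3, 7.05 and 21.7 in telogen and 10.6, 29.4 and 4.13 in anagen, which overlap. The other 4 tested genes (Col8a1, Col9a3, Col10a1 and Col16a1) had log2 fold changes from -1.21 to 0.64, none past the threshold.

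Because chains of a trimer are measured in the same library, the ratio of their counts per kb does not depend on how libraries were scaled. Of 6 pairs compared, 4 had ratios that did not overlap between the phases. No such share was taken over other pairs of genes, and for single genes it was 33.3% of all genes. Each of the 4 pairs holds at least 1 gene called above from the same values, so the count adds no separate result. For Col5a1 over Col5a2 the ratio was 0.048, 0.067 and 0.029 in telogen and 1.21, 1.28 and 1.06 in anagen, a shift of 4.70 on the log2 scale. Per kb of the longest transcript, Col5a2 thus stood far above Col5a1 in telogen, and Col5a1 stood slightly above Col5a2 in anagen. With the total exon length the anagen means were 78.3 per kb for Col5a1 and 46.5 for Col5a2. For Col1a1 over Col1a2 the ratio was 0.25, 0.068 and 0.23 in telogen and 1.26, 0.89 and 2.20 in anagen, a shift of 3.08. With the total exon length the means of Col1a1 and Col1a2 were 10.2 and 31.6 per kb in telogen and 43.7 and 14.9 in anagen. The collagen I trimer uses more Col1a1 than Col1a2 chains, and every telogen library was below an equal ratio. These are ratios of RNA, which do not measure the chains of the protein.

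The collagen IV pair Col4a5 over Col4a6 was the tightest, with ratios of 0.74, 0.81 and 0.77 in telogen and 2.21, 2.37 and 2.22 in anagen and a shift of 1.55 on the log2 scale. Col6a1 over Col6a2 went from 1.87, 2.76 and 2.53 to 4.40, 5.50 and 5.91, a shift of 1.15. In an exact two-sided permutation test each of these 4 gave p = 0.1, the smallest that 3 against 3 libraries allow, and 0.15 after adjustment over the 6 pairs. No pair can reach 0.05 in this design. Col4a1 over Col4a2 shifted by -0.83 (exact p = 0.3) and Col8a1 over Col8a2 by 1.49 (exact p = 0.4), both with overlapping ratios. Levels per kb depend on the transcript length used, which moves the ratio in both phases alike and leaves the shift as it is.

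**Figure D3:**
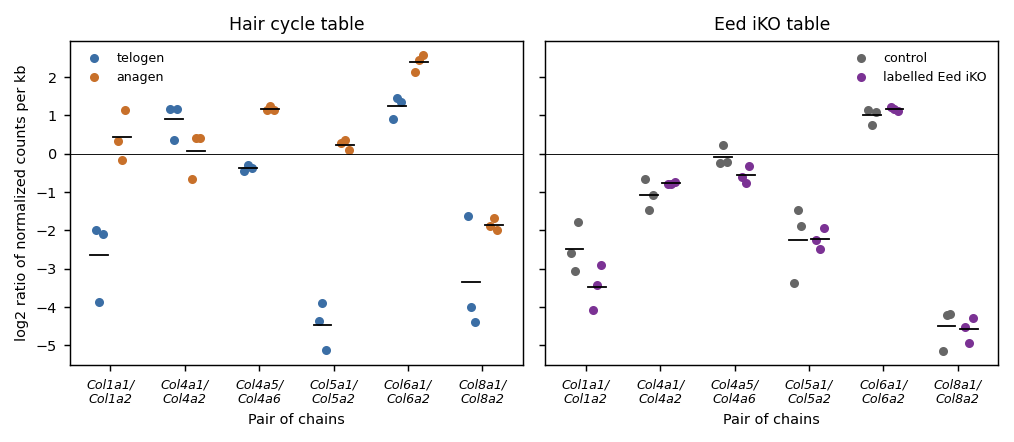
Log2 ratio of normalized counts per kb between the chains of a collagen in each library, with the hair cycle table on the left and the Eed iKO table on the right. Points are libraries, bars are means of 3, and 0 marks equal levels. In the hair cycle table the ratios of Col1a1/Col1a2, Col4a5/Col4a6, Col5a1/Col5a2 and Col6a1/Col6a2 were higher in all 3 anagen libraries than in any telogen library.

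Among the genes that make, process, cut or bind collagen, 10 had an adjusted p under 0.05, of 41 tested, beside 11.6% of all genes (7.22% higher and 4.35% lower). As with the collagen genes, a gene can pass the filter through its high phase alone, so the counts describe the genes that passed. Of the 17 tested genes of collagen biosynthesis, 2 were higher and 2 lower in anagen. Those higher were P4ha2, a prolyl 4-hydroxylase subunit that stabilises the helix, which read 55.4, 23.3 and 58.0 in telogen and 152, 315 and 149 in anagen (log2 fold change 2.16, limma adjusted p = 0.018), and Plod2, which hydroxylates lysines used in crosslinks (3.21, adjusted p = 0.020). The genes of the lower group, like those of the higher, concern modification of the chains. P3h2, a prolyl 3-hydroxylase that acts on basement membrane collagen, gave -1.23 (limma adjusted p = 0.00547) and P3h4 gave -1.18 (adjusted p = 0.014). The groups did not overlap for any of these 4.

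Of the 9 tested genes of processing and crosslinking, 2 were higher and none lower. Adamts2, which removes the amino end of procollagens, had a log2 fold change of 2.07 (SE 0.47, limma adjusted p = 0.018), and Pxdn, which crosslinks collagen IV, had 1.90 (SE 0.33, adjusted p = 0.00477). Lox and Loxl3, which code for lysyl oxidases, were listed at 0 in all 6 libraries. Pcolce, an enhancer of procollagen processing, passed only the fold rule, at -2.41 (SE 0.79, limma adjusted p = 0.075). Of the 6 tested genes of degradation, Timp3, an inhibitor of matrix proteases, and Mrc2, an uptake receptor for collagen, were higher. Timp3 read 484, 421 and 312 in telogen and 2204, 1977 and 1606 in anagen (log2 fold change 2.26, limma adjusted p = 2.1e-04). Mrc2 read 3.18, 1.82 and 2.07 in telogen and 46.6, 33.5 and 43.3 in anagen (3.66, limma adjusted p = 0.0061), and passed the filter through anagen alone. Of the 9 tested receptors, Adgrg1, an adhesion receptor that binds collagen III, was higher by 2.04 (limma adjusted p = 0.024) and Itga2, the collagen-binding α2 integrin, gave -0.93 (adjusted p = 0.019). Pxdn and Timp3 passed in every alternative, and without anagen replicate 1 they and P3h2 were the only calls, with Mrc2 added without anagen replicate 2. Without the intensity trend Adamts2, Adgrg1, Itga2, P3h2 and Plod2 did not pass, Adamts2 and Adgrg1 were also lost without anagen replicate 3, and Adgrg1 was lost without telogen replicate 3.

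Some markers of other cells moved with the hair cycle. Of the 13 fibroblast markers 8 were tested, of which Fbn1 and Dcn passed as higher in anagen and Postn as lower. Fbn1, the core of microfibrils, read 0, 0 and 5.06 in telogen and 132, 83.1 and 56.0 in anagen, and Dcn, a small proteoglycan on collagen fibrils, read 0, 0.64 and 1.47 in telogen and 38.5, 27.2 and 15.7 in anagen. Fbn1 and Dcn thus passed the filter through anagen alone, the phase in which they were called higher. With telogen at or near 0, the size of their differences depends on the 1 added before the log. Of the other 10, Twist2 was at 0 in all 6 libraries and Pdgfrb, Lum, Mfap5 and Dpt read at most 0.89, 1.79, 9.40 and 10.2. Vim, Thy1, Fbln1 and Sparc were expressed and did not pass, with the lowest library at 17.1 for Vim and 35.9 for Thy1. Pdgfra read 16.3, 1.35 and 23.6 in telogen and 13.3, 2.71 and 1.26 in anagen, where the groups overlap. The summed level of the list ran from 149472 to 200811 in telogen and from 37526 to 50333 in anagen, nearly all of it Postn and Sparc. Of the endothelial markers only Tek passed, higher in anagen at 2.98 (limma adjusted p = 0.012), with telogen at 5.12, 17.6 and 5.34. Pecam1 and Vwf gave -0.083 and -0.48 and did not pass. Kdr and Emcn did not pass the filter, and Cdh5 was at 0 in all 6 libraries. No marker of Schwann, immune, smooth muscle or dermal papilla cells passed the adjusted threshold. The part of fibroblast RNA in the differences of Col1a1, Col3a1, Col5a1 and Col14a1 was not tested. Of the 12 HFSC markers only Cd34 and Itga6 passed, in opposite directions, at -1.21 and 0.97 on the log2 scale (limma adjusted p = 0.00382 and 0.014). Both were used in the sort. Epcam, also used in the sort, gave -0.10 (limma adjusted p = 0.852).

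**Figure D4:**
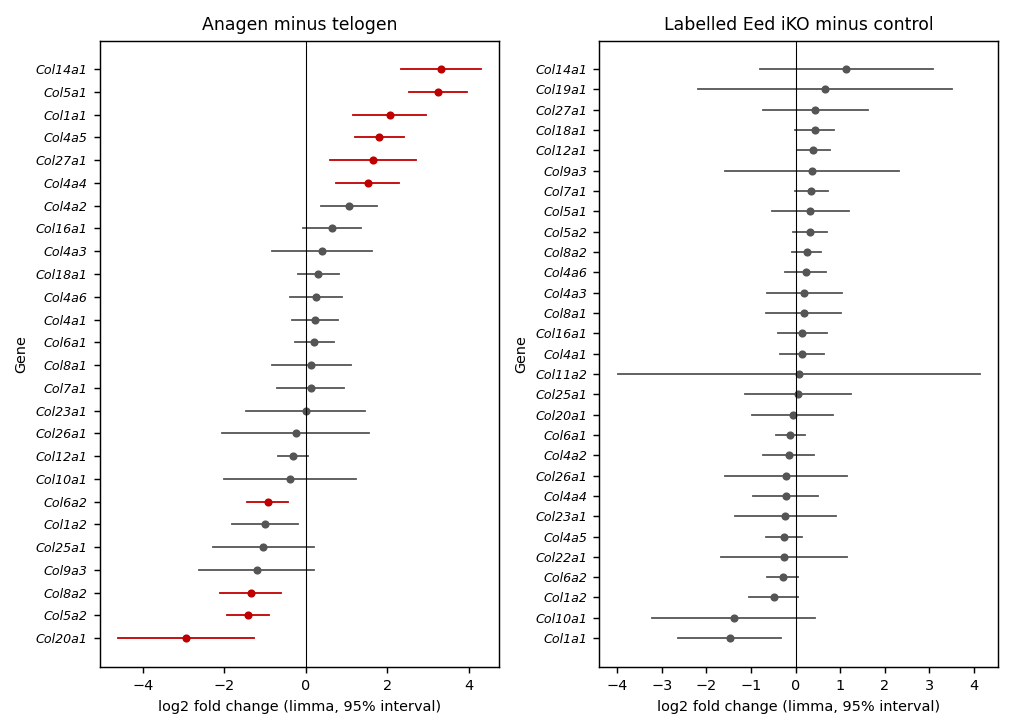
Log2 fold change with its 95% interval from limma for every tested collagen gene, anagen minus telogen on the left (26 genes) and libraries labelled Eed iKO minus control on the right (29 genes). Red marks an adjusted p under 0.05, which 10 genes reached on the left and 0 on the right. Intervals that cross 0 leave the direction unresolved.

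The other comparison asked how collagen genes differ between libraries labelled Eed iKO and control, both of resting HFSCs. None of the 29 tested collagen genes had an adjusted p under 0.05 in limma, beside 0.0267% of the 15008 genes tested (0.02% higher and 0.00666% lower), and none met the methods' rule of a log2 fold change over 1.5 in size with an unadjusted p under 0.05, beside 1.75% of all genes (0.826% higher and 0.926% lower). With an unadjusted p under 0.05 there were 2 collagen genes, and 14.7% of all genes. edgeR's quasi-likelihood test on the recovered reads of 5 libraries also made 0 calls at an adjusted p under 0.05, and DESeq2 on the same reads made 3, with Col12a1 and Col14a1 higher and Col1a1 lower. The share of all genes called by DESeq2 was not taken, so these 3 calls have no background. The library left out was Eed iKO replicate 3, which had the highest Col1a1 and the lowest Col12a1 and Col14a1 of the labelled libraries. The median log2 fold change of the 29 was 0.14, against -0.0011 for all genes. The groups did not overlap for 2 of 29 (6.90%), Col1a1 and Col5a2, and for 20.2% of all genes.

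Col1a1 came nearest to a call. It read 248, 274 and 782 in control and 92.5, 110.2 and 238 in the libraries labelled Eed iKO. Each labelled library lay below each control library, by a narrow margin between Eed iKO replicate 3 and control replicate 1, and control replicate 3 was far above the other controls. The log2 fold change was -1.48 (SE 0.52, 95% interval -2.64 to -0.32), just short of the size that the fold rule asks for, and limma gave it an unadjusted p of 0.017 and an adjusted p of 0.228. In the fits without control replicate 1, control replicate 2 or Eed iKO replicate 3, Col1a1 met the fold rule. Col12a1 was the other gene with an unadjusted p under 0.05. It read 18322, 20350.3 and 22083 in control and 25583, 33840.2 and 21923 in the libraries labelled Eed iKO, and the fold change was 0.40 (SE 0.17, limma adjusted p = 0.310) on the log2 scale with overlapping groups.

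The most abundant chains had narrow intervals. Col6a1 read 9010.2, 9082 and 11524 in control and 8563, 8833 and 9800.3 in the libraries labelled Eed iKO, with an interval of -0.43 to 0.20 for the log2 fold change. Col18a1 read 9289.8, 9503 and 15564 in control and 13915, 13822 and 17375 in the labelled libraries, with an interval of -0.02 to 0.87. Col7a1 read 12253, 13249.8 and 14246 in control and 16231, 13798 and 21633 in the labelled libraries, with an interval of -0.02 to 0.73. For these 3 genes a change of 2-fold in either direction, 1 on the log2 scale, lay outside the interval. Col4a2, the most abundant collagen IV chain, read 3047, 5416 and 6876 in control and 4038, 3995 and 5123 in the libraries labelled Eed iKO, within the control range in all 3. The 6 collagen IV chains had log2 fold changes from -0.26 to 0.23.

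The genes that were called between anagen and telogen are set beside these by their own values. Col5a1 read 280.3, 782 and 786 in control and 746, 531 and 871 in the libraries labelled Eed iKO, which overlap. Col5a2 read 2287, 1697 and 2290.4 in control and 2788, 2359 and 2643 in the labelled libraries. The Col5a2 libraries did not overlap, but the log2 fold change of 0.32 (SE 0.17) had a limma adjusted p of 0.413. Col14a1 read 59.0, 65.0 and 23.6 in control and 343, 122 and 23.7 in the libraries labelled Eed iKO. Eed iKO replicate 1 was far above the other libraries and Eed iKO replicate 3 was as low as the lowest control, so the interval was wide, -0.81 to 3.09. Col4a5 read 1227, 1326 and 1455 in control and 1241, 1021 and 1094 in the labelled libraries, and Eed iKO replicate 1 lay within the control range. Col4a4 read 567, 1131 and 581 in control and 797, 677 and 439.9 in the labelled libraries, which overlap.

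Col8a2 read 6173, 5527 and 7016 in control and 6926, 6972 and 8366 in the libraries labelled Eed iKO, and the groups overlapped. Col6a2 read 4869, 6412 and 6509 in control and 4397, 4708 and 5375 in the labelled libraries. These overlapped as well, with log2 fold changes of 0.25 (SE 0.15) for Col8a2 and -0.29 (SE 0.16) for Col6a2. Col20a1 read 334, 328 and 837 in control and 421, 304 and 625 in the labelled libraries. Col27a1 read 52.0, 99.7 and 55.3 in control and 65.6, 86.3 and 129 in the labelled libraries. Neither gene separated the groups. Among the class leaders of low level, Col23a1 read 117, 119 and 162 in control and 58.1, 133 and 181 in the libraries labelled Eed iKO. Col25a1 read 48.6, 57.4 and 83.4 in control and 79.6, 50.5 and 65.2 in the labelled libraries, and Col26a1 read 44.4, 52.0 and 46.2 in control and 30.1, 30.5 and 74.1 in the labelled libraries. The groups overlap for all 3. The rest had adjusted p-values of 0.386 or more, and their log2 fold changes ran from -1.39 for Col10a1, a network collagen of growth plate cartilage, to 0.66 for Col19a1.

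**Figure D5:**
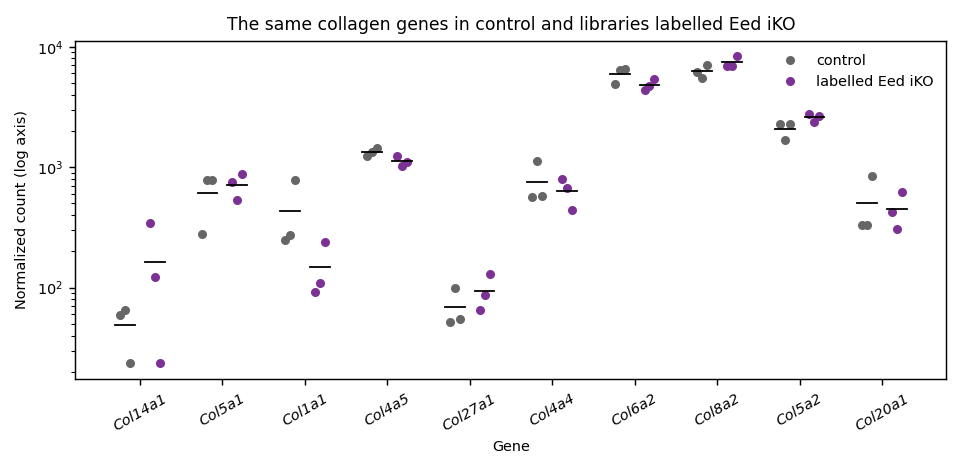
Normalized counts (log axis) in control libraries and libraries labelled Eed iKO for the 10 collagen genes that passed between anagen and telogen, in the same order. Points are libraries and bars are means of 3. Of these genes, Col1a1 and Col5a2 had groups that did not overlap, and none passed the adjusted threshold.

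Chain ratios gave no call in the Eed iKO table. Col4a5 over Col4a6 was 0.85, 1.18 and 0.86 in control and 0.65, 0.59 and 0.81 in the libraries labelled Eed iKO, without overlap, a shift of -0.49 on the log2 scale (exact permutation p = 0.1, adjusted 0.4). Col1a1 over Col1a2 was 0.17, 0.12 and 0.29 in control and 0.059, 0.093 and 0.13 in the labelled libraries, with overlap and a shift of -0.99 (exact permutation p = 0.2, adjusted 0.4). The other 4 pairs shifted by 0.29 or less in size.

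Of the related lists, 0 of 45 tested genes had an adjusted p under 0.05 in limma in this comparison. The fold rule took 3, 1 higher and 2 lower, beside 1.75% of all genes (0.826% higher and 0.926% lower). Plod2 read 289, 98.6 and 62.6 in control and 47.3, 9.30 and 35.6 in the libraries labelled Eed iKO (log2 fold change -2.22). Itga10 and Itga11, which code for collagen-binding integrin chains, had log2 fold changes of -2.40 and 2.78, with Itga10 at 36.1, 160.3 and 258 in control and 8.60, 23.9 and 43.5 in the labelled libraries, and Itga11 at 0.69, 5.42 and 5.44 in control and 23.7, 18.6 and 45.5 in the labelled libraries. The limma adjusted p-values of these 3 were between 0.215 and 0.225, and Itga11 passed the filter through the labelled libraries alone. None of the 9 tested fibroblast markers passed, and their summed level was 221927 to 364692 in control and 239978 to 297541 in the libraries labelled Eed iKO. All genes called by the fold rule on the other marker lists came to 1, Cd207 of Langerhans cells, at 0, 0 and 0 in control and 18.3, 13.3 and 23.7 in the labelled libraries. Its limma adjusted p was 0.130, and it passed the filter through the labelled libraries alone. The other tested immune markers, Cd74, Ptprc and Cd3e, gave 0.36, 0.33 and -0.48 and met neither rule. Lyz2 did not pass the filter, at 0, 0 and 0 in control and 55.9, 65.1 and 0 in the labelled libraries. Collagen counts summed to between 74283 and 100360 in control and between 94084 and 104018 in the libraries labelled Eed iKO, which overlap, and to between 15315 and 21343 in telogen and between 17241 and 19075 in anagen, where the anagen range lay within that of telogen.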

How the data were processed

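The authors quantified the reads with Kallisto (version 0.42.5 in the submitters' processing notes) against mouse Gencode transcripts (mm10) and normalized them with DESeq2 (listed as 3.11). The deposited values are coverage-like signal values, counts per gene divided by the library's size factor, with the 2 tables scaled separately. The authors' own fold changes and p-values in these tables were not used. In 5 libraries of the Eed iKO data, 100% of values were whole reads within 0.1 read after rescaling. Recovery of reads was not accepted for Eed iKO replicate 3 and reads of the hair cycle libraries were not recovered, so depth and a counting limit are not given there.

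Genes were kept with filterByExpr of edgeR 4.0.16 (minimum of 10) and tested with limma 3.58.1 (R 4.3.3) on log2(value + 1) with an intensity trend and Benjamini-Hochberg adjustment over all genes tested, each table alone. Fold changes on this scale understate those of low genes. The fit was tested on simulated data. Gene positions and lengths came from GENCODE vM21 (mm10, 1-based), which matched 17879 and 21915 identifiers and all 43 collagen genes. RefSeq windows were found for 34 of the 43. Chain ratios were compared by an exact two-sided permutation test. Values for every library are given for collagen genes past either threshold in either comparison and for the member of each structural class with the highest level per kb. Others were named after their values were seen where the text says so. The members and lists were chosen with earlier results of these data known. Alternatives were another pseudocount, no filter, no trend, TMM scaling, a replicate block, each library left out, and DESeq2 1.42.0 and edgeR on recovered reads of 5 libraries, a subset chosen after seeing the data.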

Additional observations from a re-analysis of the deposited data

How the results depend on the processing

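Between anagen and telogen, Col5a1, Col14a1, Col4a5 and Col5a2 passed the adjusted threshold in all 11 alternatives. The count of 10 collagen genes became 6 without the intensity trend (losing Col4a4, Col6a2, Col8a2 and Col20a1), 8 with the replicate block and 4 to 10 when a library was left out (lowest without anagen replicate 3). The 10 genes of the related lists became 5 without the trend and 3 to 13 with a library left out. Between the libraries labelled Eed iKO and control, DESeq2 on 5 libraries called 3 collagen genes (Col12a1, Col14a1, Col1a1) and 5 genes of the related lists, and the block called 1 of these (Ppib). By the fold rule the 0 collagen genes became 2 with no filter (Col6a3, Col9a2), 3 in DESeq2, 2 in edgeR and 0 to 2 with a library left out. No share over all genes was taken for the alternatives, so their counts have no background. Correlations of same-numbered deviations were 0.039 to 0.193 in the Eed iKO table and -0.071 to -0.029 in the hair cycle table. Whether replicate numbers pair the libraries is thus not settled, and the block was fitted only as a check. It brought the limma adjusted p of Col1a1 in the Eed iKO table from 0.228 to 0.059. In the hair cycle table the block lost Col6a2 and Col27a1. With no filter the count stayed at 10, with Col3a1 in and Col27a1 out. No collagen gene lost or gained a call by TMM scaling. Leaving out a library moved the log2 shift of Col5a1/Col5a2 in the Eed iKO table from -0.55 to 0.40 and that of Col8a1/Col8a2 from -0.39 to 0.11. With a library left out, log2 fold changes that crossed 0 ran, in the Eed iKO table, from -0.33 to 0.38 for Col20a1, -0.57 to 0.24 for Col23a1, -0.11 to 0.27 for Col25a1, -0.63 to 0.0073 for Col26a1, -0.49 to 0.10 for Col4a2, -0.40 to 0.11 for Col4a4, -0.16 to 0.58 for Col5a1, -0.18 to 0.00069 for Col6a1, -2.11 to 1.78 for Col11a2, -0.66 to 1.15 for Col9a3, -0.23 to 2.02 for Col19a1, -0.095 to 0.65 for Col4a3, -0.14 to 0.43 for Col8a1 and -0.024 to 0.32 for Col16a1. In the hair cycle table they ran from -0.26 to 0.48 for Col23a1 (2.1e-05 with a pseudocount of 0.1), -0.90 to 0.38 for Col26a1, -0.41 to 0.53 for Col7a1, -0.12 to 1.22 for Col4a3, -0.086 to 0.59 for Col8a1 and -0.00067 to 0.38 for Col4a1. Of these, Col4a3 passed once, without telogen replicate 2 in the hair cycle table (limma adjusted p = 0.031), and the cause was not tested. With union exon length, 20 of 44 levels per kb moved by more than 1 SD. DESeq2 and edgeR were not run on the hair cycle table, where reads were not recovered. With 3 libraries a group, low genes had wide intervals.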

Other observations

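Col11a2, a fibrillar chain best known from cartilage, was measured unevenly in the Eed iKO table. It read 0, 82.3 and 108 in control and 1.08, 66.4 and 75.1 in the libraries labelled Eed iKO, so both libraries with replicate number 1 were at or near 0 while the other 4 lay above 50. Of the 15008 genes tested there, 2 had values under 5 in both replicate 1 libraries and over 50 in the other 4, Col11a2 and Gm42878. The log2 fold change of Col11a2 between the groups was 0.08 (SE 1.84). This gene was picked after its values were seen, and what the libraries numbered 1 share beyond the number was not tested.

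Col10a1 in the same table was high in controls only in part, at 108, 344 and 26.3 against 43.0, 34.5 and 35.6 in the libraries labelled Eed iKO, with a log2 fold change of -1.39 (SE 0.83, limma adjusted p = 0.458). Control replicate 2 stood above the rest, and control replicate 3 was below all 3 labelled libraries. Without control replicate 3, Col10a1 met the fold rule, and this gene too was picked after its values were seen.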
